A study of Mus musculus with 28 samples.

Results

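The 71 probes described here had a higher ratio of sample to reference signal without doxycycline (Dox) than with it. This held in both of 2 mouse embryonic stem (ES) cell lines, the line with an Etv5 transgene and the line with a Ctbp2 transgene. The probes were selected on measured values of those lines. R, the log2 of the sample's over the reference's processed signal, had to be at least 0.25 higher without Dox in each line, and the arrays with and without Dox could not overlap in either. A probe also had to be well above background on all 28 arrays, to have a mean R with Dox between -1 and 2, and to differ by less than 1 between the lines' mean R with Dox. Of the 42006 probes on the array, 23703 were well above background on all 28 arrays and 16737 of these, called candidates below, met the level limits. Of the candidates, 498 met the Etv5 condition, 641 the Ctbp2 condition and 71 both, which is 14.3% of the Etv5 list and 11.1% of the Ctbp2 list. The changes in those lines are therefore given as a description, and tests are given only for the other 5 lines.

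RNA was measured on 28 2-colour arrays in 7 ES cell lines, each with a transgene that Dox keeps off, so that culture without Dox turns it on. Each line was arrayed from 2 wells with Dox and 2 wells without Dox. The transgenes were Tcl1 (clone 6), Etv5 (clone 24), Tbx3 (clone 15), Jarid2 (clone 37), Jmjd2c (clone 14), Ctbp2 (clone 23) and Mettl5 (clone 15). Per the labels, all lines derive from male cells of strain 126S6/SvEvTac with the parental name MC1R(20), at passage 25 in medium with LIF, with puromycin at 1.5 µg/ml and Dox at 0.2 µg/ml where given. By the same labels every well was plated in Dox at 0.2 µg/ml, those called without Dox included. After washing, only the wells called with Dox received it again. Harvest was 48 h after the final wash. Each line is 1 clone, so the effect of a transgene and that of its clone cannot be told apart, and p-values measure the spread between wells. Sample RNA was in Cy3 and the reference in Cy5 on every array. The reference joined 2 parts of a pool of 11 mouse cell lines with 1 part of ES cell RNA. The 4 arrays of a line shared a slide, except in the Tbx3 line, whose without-Dox replicate 1 was on another slide than its other 3 arrays. Median spot signal was 81.3 to 117 per array, 1.77 to 2.80 times the background, and the number of arrays limits the precision. The files give probes by ID and sequence with no gene name, and 0 of the 42006 IDs matched the RefSeq gene table. Markers of ES cells or of other cell types and the transgenes' own transcripts were therefore not analysed here, and the identity of each line rests on its label.

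Etv5 is a transcription factor of the ETS family that binds DNA at a GGAA core and is induced by FGF signalling in ES cells. Ctbp2 is a corepressor that does not bind DNA sequence itself but is brought to promoters and enhancers by other factors, together with histone-modifying enzymes. Of the other transgene products, Tcl1 enhances the activity of the kinase Akt, Tbx3 is a T-box factor that helps to maintain ES cell self-renewal, and Jarid2 recruits a Polycomb complex. Jmjd2c removes methyl groups from histone H3, and Mettl5 methylates ribosomal RNA.

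The following probe sequences, 5′ to 3′ as deposited, belong to members whose values the account turns on. The first 2 have the largest change common to both lines, the next 3 passed the test in the Tcl1 line, and the last 2 had the smallest p in the Jmjd2c line.
Z00036608-1: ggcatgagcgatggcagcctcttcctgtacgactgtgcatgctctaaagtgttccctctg
Z00034178-1: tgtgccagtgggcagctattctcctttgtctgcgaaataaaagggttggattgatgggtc
Z00014991-1: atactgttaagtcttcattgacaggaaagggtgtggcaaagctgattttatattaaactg
Z00075434-1: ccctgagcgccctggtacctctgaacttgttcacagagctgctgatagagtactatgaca
Z00043301-1: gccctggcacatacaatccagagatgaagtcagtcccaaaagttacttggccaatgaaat
Z00044113-1: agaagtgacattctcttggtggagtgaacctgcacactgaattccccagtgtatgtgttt
Z00025238-1: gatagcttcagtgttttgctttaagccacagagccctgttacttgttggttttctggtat

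All 71 sequences differed. One pair of members shares 27 bases, in capitals, and so does not give independent members.
Z00037564-1: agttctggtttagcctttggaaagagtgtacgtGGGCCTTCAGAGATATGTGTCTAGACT
Z00074650-1: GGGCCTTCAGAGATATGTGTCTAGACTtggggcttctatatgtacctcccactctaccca
Both were chosen on their changes in the Etv5 and Ctbp2 lines, so those changes are a description. The changes (R without Dox minus R with Dox) were 0.32 for Z00037564-1 and 0.33 for Z00074650-1 in the Etv5 line, and 0.52 and 0.54 in the Ctbp2 line. The same probes gave 0.20 and 0.23 with Tcl1, 0.15 and 0.12 with Tbx3, -0.23 and -0.09 with Jarid2, -0.04 and -0.15 with Jmjd2c, and 0.04 and -0.03 with Mettl5. Over all 1038 pairs of tested probes that share 20 or more bases, the median size of this difference within a line was between 0.033 and 0.056. Of the 5 lines the rule did not use, the pair lay within that in the Tcl1 and Tbx3 lines and above it in the Jarid2, Jmjd2c and Mettl5 lines.

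A further 3 members shared 43 to 52 bases with a probe that is no member. Z00075116-1 and Z00057223-1 share 43 bases, in capitals.
Z00075116-1: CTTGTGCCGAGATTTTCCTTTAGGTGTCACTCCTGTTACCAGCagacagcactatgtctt
Z00057223-1: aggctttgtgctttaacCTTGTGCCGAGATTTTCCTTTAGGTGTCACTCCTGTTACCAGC
Z00057223-1 was tested but failed the level limits, and its changes of 0.37 in the Etv5 line and 0.28 in the Ctbp2 line were close to those of Z00075116-1, 0.37 and 0.25. Z00073950-1 and Z00075833-1 share 52 bases and did not move alike.
Z00073950-1: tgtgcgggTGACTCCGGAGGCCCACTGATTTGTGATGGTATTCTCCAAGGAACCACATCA
Z00075833-1: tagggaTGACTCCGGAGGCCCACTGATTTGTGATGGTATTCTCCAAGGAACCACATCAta
Z00073950-1 changed by 0.25 in the Etv5 line, 0.63 in the Ctbp2 line and -0.03 in the Mettl5 line. Z00075833-1 changed by 0.13, 1.05 and -0.69 in the same lines. These probes differ in the bases at their ends, and which transcripts each one reads was not tested.
The last of the 3, Z00075310-1, shares 48 bases with Z00032009-1, whose changes of 0.32 in the Etv5 line and 0.18 in the Ctbp2 line left it under the threshold in the latter.

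For 3 of the 71 members all 60 bases lie within a RefSeq promoter window (GRCm38.p6, 250 bases before to 50 after a gene's start). Z00075310-1 has the strand of Rpl38, a protein of the large ribosomal subunit, and runs from 54 bases before to 5 bases after its start (chr11:114668526-114668585).
Z00075310-1: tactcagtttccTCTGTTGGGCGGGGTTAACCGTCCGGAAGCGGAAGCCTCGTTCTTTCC
The capitals mark the part shared with Z00032009-1. Z00029937-1 lies on the strand opposite to Abcb1b, a drug efflux transporter, 202 to 143 bases before its start (chr5:8797945-8798004). Z00037562-1 lies on the strand opposite to Mettl5, 223 to 164 bases before its start (chr2:69885779-69885838).
Z00029937-1: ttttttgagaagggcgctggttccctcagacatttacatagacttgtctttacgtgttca
Z00037562-1: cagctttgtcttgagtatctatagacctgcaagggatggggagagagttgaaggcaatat
A match gives a position and does not say which transcript a probe reads. In the Mettl5 line itself, Z00037562-1 had a mean R of 1.29 ± 0.26 (SD, n = 2) with Dox and 1.25 ± 0.14 without Dox, and the groups overlapped. The letters AATAAA, the common polyadenylation signal, stood in 3 members (4.23%) and in 7.56% of candidates, and on the opposite strand, as TTTATT, in 2 members (2.82%) and 3.09% of candidates. Median GC content was 45% in both.

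The changes that selected the members were small. The median change was 0.36 in the Etv5 line (middle 50% of members 0.31 to 0.42, highest 0.65) and 0.42 in the Ctbp2 line (0.31 to 0.57, highest 1.55). As background with no reading, limma's test called 36 members higher without Dox in the Etv5 line, where it called 2.45% of tested probes, and 40 in the Ctbp2 line, where it called 4.07%. The rule itself was met in these lines by 2.98% and 3.83% of candidates.

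Z00036608-1 had R of -0.09 and -0.19 with Dox and 0.49 and 0.40 without Dox in the Etv5 line. In the Ctbp2 line it had 0.07 and 0.06 with Dox and 0.69 and 0.62 without Dox. It was the member with the largest value of the smaller change, 0.58 (1.50-fold). Z00034178-1, with 0.56, had R of -0.72 and -0.74 with Dox and -0.15 and -0.19 without Dox in the Etv5 line, and -0.18 and -0.18 with Dox and 0.41 and 0.36 without Dox in the Ctbp2 line. For both probes the wells without Dox lay above the wells with Dox in these lines by several times the gap between replicates. Both were picked for the size of these changes, so the separation is a description. Their replicates lay further apart elsewhere. Z00036608-1 had R of 0.65 and 0.23 with Dox in the Jmjd2c line, and Z00034178-1 had -0.71 and -0.23 with Dox in the Tbx3 line.

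The Ctbp2 line held the widest values. Z00014991-1 went from R of 1.03 and 0.76 with Dox to 2.56 and 2.33 without Dox there, a change of 1.55 (2.93-fold), while in the Etv5 line it went from 1.73 and 1.92 to 2.25 and 2.16. Z00053293-1 went from 0.71 and 0.61 to 1.94 and 1.60 in the Ctbp2 line, a change of 1.11. In the Etv5 line the largest changes were those of Z00016616-1, from 0.26 and 0.23 to 0.84 and 0.95, and of Z00043301-1, from 0.86 and 0.94 to 1.35 and 1.65. Neither of these was among the largest in the Ctbp2 line, where they changed by 0.45 and 0.35.

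At the threshold, Z00056160-1 was just inside with a change of 0.25 in the Etv5 line, from 0.24 and 0.21 to 0.66 and 0.30, and 0.56 in the Ctbp2 line. Z00041755-1 was just outside, also at 0.25 when rounded, from -0.09 and 0.02 to 0.22 and 0.20 in the Etv5 line, with 0.34 in the Ctbp2 line. In the Etv5 line the replicates of the inside probe were further apart than those of the outside probe without Dox, and closer together with Dox. Some members rest on 1 well: Z00055516-1, named after its values were seen, had R of 0.20 and -1.50 with Dox and 0.33 and 0.31 without Dox in the Ctbp2 line.

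The members were dim spots. The median Cy3 signal over the 28 arrays was 253 for members and 1736 for candidates, 58 of 71 lay below the candidates' median and 39 below their 25th percentile. Brightness depends on the probe as well as on RNA and is no RNA level. The median replicate SD of R over the 5 other lines was 0.094 for members and 0.067 for candidates. The median range of the lines' mean R with Dox was 0.73 for members and 0.50 for candidates, so that members also differed more between lines with the transgene off. Their median R with Dox was 0.62, against 0.35 for candidates, and 18 members (25.4%) and 29.2% of candidates were below 0, that is lower in the ES lines than in the reference. The part of brightness and replicate spread in which probes met the rule was not tested.

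In the 5 other lines the members did not move as a block. The median change was 0.07 in the Tcl1 line, -0.05 in the Tbx3 line, -0.01 in the Jarid2 line, 0.09 in the Jmjd2c line and 0.14 in the Mettl5 line, while the candidates' median was within 0.03 of 0 in every line. The number of members higher without Dox was 41, 30, 31, 54 and 60 of 71 in the same order. Of the 71, 5 were higher in all 5 other lines, 14 in 4, 34 in 3, 15 in 2 and 3 in 1. The 5 were Z00047857-1, Z00023276-1, Z00055516-1, Z00001841-1 and Z00060830-1, and the smallest of their changes lay between 0.00 and 0.06. The candidates' shares for these counts by sign are not given here, so the counts are not read as results about the members. A rise by the rule's own measure (at least 0.25 with no overlap) was met in at least 1 other line by 28 members (39.4%) and by 11.2% of candidates. Of the 28, 8 met it in 2 lines and none in 3 or more, and the candidates' share for this split is not given here. A fall by the same measure was met in at least 1 other line by 24 members (33.8%, against 13.5% of candidates). Both a rise and a fall were met by 10 members (14.1%, against 2.71% of candidates), and neither by 29 (40.8%, against 78% of candidates).

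The Tcl1 line had the most calls and had them in both directions. At an adjusted p under 0.05 in limma's fit over all 28 arrays, 8 members rose (11.3%, against 3.83% of tested probes), by 0.18 to 0.72, and 7 fell (9.86%, against 5.09%), by 0.24 to 1.44. By size and lack of overlap, 14 members were higher (19.7%, against 4.09% of candidates) and 12 lower (16.9%, against 4.79%). At any size, 30 were higher without overlap (42.3%, against 23.1% of candidates) and 21 lower. The candidates' share that was lower without overlap at any size is not given here for any line. At an unadjusted p under 0.05 the count was 33 (46.5%, against 21.3% of tested probes). The spread between members was the widest of the 5 lines, from -1.44 to 0.72, with the middle 50% between -0.20 and 0.21.

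Z00014991-1, the member with the largest change in the Ctbp2 line, had the largest fall in the Tcl1 line. Its R in the Tcl1 line was 1.58 and 1.39 with Dox and 0.15 and -0.07 without Dox, a fall of 1.44 (2.71-fold, SE 0.16, limma adjusted p = 1.78e-05). The Cy5 reference at this spot changed by -0.05 and Cy3 alone by -1.48. With background correction by normexp and loess normalization the change was -0.54 (limma adjusted p = 0.000561). Z00075434-1 fell by 0.57, from 0.12 and 0.21 to -0.47 and -0.35 (SE 0.06, limma adjusted p = 6.44e-06), and in the Etv5 line had gone from 0.40 and 0.34 to 0.87 and 0.87. For this probe the Tcl1 line was already the lowest of the 7 with the transgene off, since the other lines lay between 0.34 and 1.20 with Dox. The 12 members that were lower in the Tcl1 line by the rule's measure include both. All 71 were higher in the Ctbp2 line by selection.

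Z00043301-1 rose by 0.72 in the Tcl1 line, from 0.96 and 0.88 to 1.91 and 1.37 (SE 0.14, limma adjusted p = 0.00317). Its without-Dox wells were further apart than its wells with Dox, and the lower one still lay above both of the latter. The change was 0.35 with normexp and loess (limma adjusted p = 0.00774) and 0.46 with Cy3 alone (0.0135). Without the first of these wells the change was 0.45 (limma adjusted p = 0.0637). Z00075116-1 rose by 0.61, from 0.05 and -0.04 to 0.74 and 0.50 (SE 0.08, limma adjusted p = 0.000134), and the overlapping probe Z00057223-1 changed by 0.65. The with-Dox wells of the Tcl1 line were again the lowest of the 7 lines for Z00075116-1, whose other with-Dox wells lay between 0.26 and 1.03. The count of 15 calls in this line depended on single wells. Leaving out with-Dox replicate 1 left 9, with-Dox replicate 2 left 9 and without-Dox replicate 1 left 5. With all 4 arrays of the Tbx3 line out of the fit it was 26, and with the line's own 4 arrays alone it was 0. The share of tested probes called in these fits is not given here, so these counts are no result about the members.

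In the Tbx3 line calls went mostly down. By limma's adjusted p, 2 members rose (2.82%, against 4.63% of tested probes) and 6 fell (8.45%, against 5.86%). By size and lack of overlap 2 were higher (against 3.73% of candidates) and 9 lower (12.7%, against 5.72%). At any size 8 were higher without overlap (11.3%, against 12.8% of candidates) and 16 lower. An unadjusted p under 0.05 was found for 16 members (22.5%, against 29.6% of tested probes). Without the array on the other slide 0 members rose (against 0.418% of tested probes) and 3 fell (4.23%, against 0.43%) by limma's adjusted p. In that fit 14 had an unadjusted p under 0.05 (19.7%, against 12.7% of tested probes), and the median change was -0.07.

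Z00074557-1 had the largest fall among the members that passed, from R of 1.36 and 1.32 with Dox to 0.93 and 0.86 without Dox, by 0.45 (SE 0.08, limma adjusted p = 0.00618). Within the slide the fall was 0.48 (limma adjusted p = 0.0402), and the Cy5 reference changed by 0.00. With normexp and loess the fall was 0.28 (limma adjusted p = 0.0244). Z00036423-1 fell by 0.39, from -0.13 and -0.19 to -0.69 and -0.41 (SE 0.09, limma adjusted p = 0.0162), with limma's adjusted p at 0.248 within the slide. Of the fits tried, the first lost its call only with the line's own 4 arrays alone, and the second also with Cy3 alone, within the slide and with slide as a random block.

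Both rises in the Tbx3 line came with a larger change in the reference channel than in the sample channel. Z00033162-1 rose by 0.65, from 0.68 and 0.67 to 1.46 and 1.19 (SE 0.14, limma adjusted p = 0.0136), while Cy5 changed by -0.44 and Cy3 alone by 0.21 (limma adjusted p = 0.355). With normexp and loess its change was 0.17 (limma adjusted p = 0.036). Z00047857-1 rose by 0.39, from -0.99 and -0.93 to -0.52 and -0.61 (SE 0.11, limma adjusted p = 0.0381), while Cy5 changed by -0.33 and Cy3 alone by 0.08 (limma adjusted p = 0.707). Z00036423-1 was of the same kind, with Cy5 at 0.32 and Cy3 alone at -0.06 (limma adjusted p = 0.743). The reference RNA is the same on all arrays, and the part of the Cy5 changes in these calls was not tested. Neither rise passed within the slide, where limma's adjusted p was 0.192 and 0.305.

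In the Jarid2 line no member passed limma's test at an adjusted p under 0.05, where 0.0169% of tested probes did, and 4 members had an unadjusted p under 0.05 (5.63%, against 4.67% of tested probes). By size and lack of overlap 2 were higher (2.82%, against 1.08% of candidates), Z00059687-1 by 0.33 and Z00055516-1 by 0.40, and 3 were lower (4.23%, against 1.54%), Z00043301-1 by -0.29 and the 2 below. At any size 16 were higher without overlap (22.5%, against 19.1%) and 20 lower. The smallest p belonged to Z00031706-1, with R of 0.46 and 0.63 with Dox and 0.23 and -0.14 without Dox, a change of -0.50 (SE 0.18, limma adjusted p = 0.831). Z00061360-1 changed by -0.47, from -0.06 and 0.02 to -0.64 and -0.35 (SE 0.19, limma adjusted p = 0.909). Both are dim, with Cy3 signals of 55.5 and 71.6, and neither passed. With normexp and loess their changes were -0.03 and -0.15.

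In the Jmjd2c line no member passed either, and the changes leaned upward. Limma's test called 0.346% of tested probes there, and 12 members had an unadjusted p under 0.05 (16.9%, against 7.43% of tested probes), all 12 higher without Dox. By size and lack of overlap 7 were higher (9.86%, against 1.61% of candidates), by 0.28 to 0.56, and 3 lower (4.23%, against 1.49%), namely Z00056448-1, Z00033162-1 and Z00029937-1 at -0.27, -0.27 and -0.43. These 3 are dim, with Cy3 signals of 45.2 to 67.9. At any size 33 were higher without overlap (46.5%, against 19.6% of candidates) and 6 lower. Leaving out each array of the line in turn gave median changes between 0.08 and 0.09, with 49 to 54 members higher.

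Z00044113-1 came closest in the Jmjd2c line, from R of -0.27 and -0.23 with Dox to 0.17 and -0.04 without Dox, a change of 0.32 (SE 0.07, limma adjusted p = 0.0559). It passed with normexp and loess (limma adjusted p = 0.0278), with Cy3 alone (0.0331) and without the Tbx3 line (0.00778). In the Etv5 line it had gone from -0.18 and -0.12 to 0.32 and 0.25, in the Ctbp2 line from -0.14 and -0.09 to 0.40 and 0.35, and in the Tcl1 line it fell, from -0.86 and -0.83 to -1.07 and -1.11 (limma adjusted p = 0.0335). The Tcl1 wells with Dox lay below those of every other line for this probe. Z00025238-1 changed by 0.20 in the Jmjd2c line, from 0.73 and 0.66 to 0.97 and 0.82 (SE 0.05, limma adjusted p = 0.14).

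The Mettl5 line had no call and the widest upward lean. Limma's test called 0.0211% of tested probes and no member, but 18 members had an unadjusted p under 0.05 (25.4%, against 5.3% of tested probes), all 18 higher without Dox. By size and lack of overlap 11 were higher (15.5%, against 1.76% of candidates), by 0.26 to 0.44, and 1 was lower (1.41%, against 1.36%), Z00056448-1 at -0.29, the dimmest member. At any size 41 were higher without overlap (57.7%, against 23% of candidates) and 3 lower. The median change lay between 0.10 and 0.16 on leaving out each array of the line, with 56 to 63 members higher. All 13 members at or above the candidates' median brightness were higher, with a median of 0.12, as were 47 of the 58 dimmer ones, with a median of 0.15.

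Z00075434-1 had the smallest p in the Mettl5 line, from R of 0.94 and 0.93 with Dox to 1.20 and 1.25 without Dox, a change of 0.29 (SE 0.06, limma adjusted p = 0.114). It passed without the Tbx3 line (limma adjusted p = 0.0214) and with a GC trend taken out (0.0484). Z00025238-1 changed by 0.21, from 0.94 and 0.96 to 1.19 and 1.13 (SE 0.05, limma adjusted p = 0.261). The same probe was called in 2 lines in opposite directions, rising from 0.16 and 0.14 to 0.33 and 0.32 in the Tcl1 line (limma adjusted p = 0.0398) and falling from 1.09 and 1.03 to 0.78 and 0.78 in the Tbx3 line (limma adjusted p = 0.00592).

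A rise of the rule's size in both the Jmjd2c and the Mettl5 line was met by 1 of 71 members (1.41%, against 0.119% of candidates), Z00055211-1, with changes of 0.30 in the Jmjd2c line and 0.44 in the Mettl5 line. At any size, 47 members (66.2%) were higher without Dox in both lines, against 29.5% of candidates.

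Averaged over the 5 other lines, 46 members were higher without Dox and 25 lower, with a median of 0.04. Limma's test of that mean called 2 members, both higher (0.768% of tested probes were called), and 19 had an unadjusted p under 0.05 (26.8%, against 10.8% of tested probes), 14 of them higher (19.7%, against 4.63%). Z00075116-1 had a mean change of 0.19 (SE 0.04, limma adjusted p = 0.0221), made up of 0.61 in the Tcl1 line, 0.32 in the Mettl5 line, 0.10 in the Jmjd2c line and -0.05 and -0.01 in the Tbx3 and Jarid2 lines. Z00023276-1 had 0.13 (SE 0.03, limma adjusted p = 0.0483), with a positive change in each line, the largest 0.26 in the Mettl5 line from 0.37 and 0.31 to 0.62 and 0.59. The count depended on single arrays, and the share of tested probes called in the fits below is not given here. Leaving out 1 of the 20 arrays gave from 0 to 7, the highest being 7 without Tbx3 with-Dox replicate 2 and 7 without Tbx3 without-Dox replicate 2, and 16 were called with the Tbx3 line out of the fit.

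The 5 lines differed in their response at 17 members (23.9%, against 7.92% of tested probes) by limma's moderated F test at an adjusted p under 0.05. The smallest adjusted p values belonged to probes that moved in the Tcl1 line, Z00075434-1 (5.52e-05) and Z00014991-1 (0.000381), and to Z00025238-1 (0.00055). The count moved when 1 of the 20 arrays was left out. The share of tested probes called in those fits is not given here, so that movement is no result about the members.

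Set out by array, the median over members of R minus each probe's mean over the 14 arrays with Dox was 0.04 and 0.05 with Dox and 0.46 and 0.42 without Dox in the Etv5 line. In the Ctbp2 line it was -0.10 and -0.10 with Dox and 0.35 and 0.43 without Dox. In the Mettl5 line it was 0.05 and 0.06 with Dox and 0.17 and 0.13 without Dox. The wells without Dox lay above those with Dox in these lines, by the least in the Mettl5 line. In the Jmjd2c line it was -0.02 and -0.04 with Dox and 0.05 and 0.03 without Dox, and in the Jarid2 line 0.04 and 0.08 against 0.08 and 0.03. The Tcl1 line was at -0.08 and -0.13 with Dox and at -0.06 and -0.07 without Dox. In the Tbx3 line it was 0.0623 and 0.121 with Dox, and 0.0557 on the other slide and 0.0254 on the same slide without Dox. The Jarid2 groups thus overlapped, the Tbx3 wells without Dox lay below those with Dox, by little for the array on the other slide, and the Tcl1 arrays stayed lowest among the 5 other lines in both conditions.

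Over the 20 arrays of the 5 other lines the members did not share a common profile. The correlation of a member with the members' median profile had a median r of 0.24, ranged from -0.59 to 0.88, and was above 0.5 for 26 of 71. The changes of the 5 lines correlated between members at a mean r of 0.12, and between candidates at 0.01. Probes on the same arrays share library and slide, so these are descriptions. Outside the members, the probes most like the median profile were Z00025403-1 and Z00031088-1, both at r = 0.93 over 20 arrays. Z00025403-1 changed by 0.17 in the Etv5 line and 0.03 in the Ctbp2 line, and Z00031088-1 by 0.12 and 0.02.

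Across the 71 members the changes with Tcl1 and with Ctbp2 ran opposite, at r = -0.38 (candidates -0.01), but this rests on Z00014991-1, without which r was -0.10. Changes with Etv5 and Jmjd2c had r = 0.36 (candidates 0.21), those with Etv5 and Mettl5 0.19 (0.29) and those with Etv5 and Tbx3 -0.30 (-0.13). The rule set a lower limit on the members' Etv5 and Ctbp2 changes. The r of members and of candidates are therefore not like for like, and nothing is read from the difference.

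By the median over members, the changes in the Etv5, Ctbp2 and Mettl5 lines lay mostly in the sample channel, while in the Tbx3 line both channels moved. In Cy3 alone, scaled to each array's 75th percentile, the members' median change was 0.37 in the Etv5 line, 0.40 in the Ctbp2 line, 0.13 in the Mettl5 line, 0.07 in the Jmjd2c line, 0.07 in the Tcl1 line, 0.01 in the Jarid2 line and -0.08 in the Tbx3 line. In Cy5 it was 0.01 in the Etv5 line, 0.00 in the Ctbp2 line, -0.01 in the Mettl5 line and 0.01 in the Jarid2 line, but -0.03 in the Tcl1 line and -0.06 in the Tbx3 line. Limma's test of Cy5 called 6 members in the Tbx3 line (8.45%, against 7.29% of tested probes). It called 0 in each other line, where it called at most 0.0211% of tested probes. One of the 6, Z00028662-1, had Cy5 1.76 and Cy3 1.28 higher without Dox, with a change in R of -0.49. In Cy3 alone 57 members reached 0.25 in the Etv5 line and 62 in the Ctbp2 line, and the other members reached it only in the ratio to the reference. Cy3 alone was higher without Dox for 70 members in the Etv5 line and 69 in the Ctbp2 line. The rule selected on these lines and the candidates' shares are not given here, so these counts are a description.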

How the data were processed

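Spot intensity values were deposited after Agilent Feature Extraction (protocol GE2-v5_95, per the file headers), which subtracted background and balanced dyes within each array. The deposited detection and quality columns are flags of 0 or 1 per the file headers. The authors' value table holds log10 values for 25030 probes, 49 members among them, with column medians of 2.25 to 2.28. How the authors made it is not given in the sources used here. Changes computed from it correlated with those in R at r of at least 0.89 in every line, so the direction is settled. In the Tcl1 line both scales gave -1.438 for Z00014991-1 and 0.721 for Z00043301-1. For such probes the table carried the same change relative to the reference as R and is not independent of it. How the other values were scaled is unknown. The table was used only as an alternative.

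R was computed from the processed intensities, spots of a probe were averaged, and a group-means model was fitted over 28 arrays and 23703 probes with limma 3.58.1 (statmod 1.5.0, data.table in version 1.17.8, R 4.3.3), with 14 residual and 2.55 prior degrees of freedom, two-sided, with Benjamini-Hochberg adjustment over all tested probes. This spread is estimated from all arrays, those of the Etv5 and Ctbp2 lines included. On simulated data for the Tcl1 line with 23703 probes, changes of 0.25, 0.5 and 1 were called in 18%, 58% and 96% of cases. The members and lists were chosen with earlier results of these data known. Named probes were, by rule, the 2 with the largest common change, up to 2 with the largest rise and 2 with the largest fall that passed in each other line or their mean (otherwise the smallest p), the 2 largest in each selecting line, those at the threshold and the 2 most like outside probes. Alternatives were normexp (offset 50) with loess, median centring, Cy3 alone, the authors' table, filters, the replicate block, slide, lines and arrays left out, a GC trend and other thresholds for members. Replicate numbers were not taken as pairs, since each line has only 2. No probe took a gene name, so the planned match to proteins and the lists of marker genes were not run.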

Additional observations from a re-analysis of the deposited data

Results flagged for a closer look

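Differences among the 5 other lines in the response to Dox removal passed limma's moderated F test at 17 of the 71 members. The 17 are 23.9% of members, against 7.92% of tested probes. Among the named probes, the adjusted p was 5.52e-05 for Z00075434-1, which fell in the Tcl1 line, and 0.000381 for Z00014991-1, which fell there by 1.44. It was 0.00055 for Z00025238-1, which rose in the Tcl1 line and fell in the Tbx3 line, and 0.00327 for Z00044113-1, with changes of -0.24 in the Tcl1 line and 0.32 in the Jmjd2c line. For Z00075116-1 it was 0.00647 and for Z00043301-1 it was 0.0163, both of which rose in the Tcl1 line. In the Tbx3 line Z00074557-1 (0.0125), Z00036423-1 (0.0142) and Z00034178-1 (0.0287) fell, by 0.45, 0.39 and 0.37, and Z00033162-1 (0.0333) rose by 0.65. Without the array on the other slide, limma's adjusted p for the Tbx3 changes of Z00036423-1, Z00034178-1 and Z00033162-1 was 0.248, 0.197 and 0.192.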

How the results depend on the processing

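Of the named members' changes, 16 in the other lines or their mean were recomputed under each alternative, and 0 of these turned sign. Several alternatives, such as the filters, alter only the test and leave the change as it was. A change without overlap between wells also keeps its sign when 1 array is left out. This count therefore says little about how stable the signs are. With normexp and loess the change in the Tcl1 line was -0.54 for Z00014991-1 and 0.35 for Z00043301-1, that of Z00033162-1 in the Tbx3 line was 0.17, and that of Z00031706-1 in the Jarid2 line was -0.03. The counts of members called depended on which probes and lines entered the fit, and the cause was not tested. The number of tested probes called moved as well, for Tcl1 from 2116 of 23703 to 1534 of 42006 with no filter. Most counts below stand without such a share and are not read as results about the members. With no filter on dim probes the Tcl1 count of 15 became 8, the Tbx3 count of 8 became 5, the count for the mean of the 5 other lines went from 2 to 0 and that of the F test from 17 to 9. With probes well above background in at least 1 group the mean count was 1, and with adjustment over candidates only it was 0. With the Tbx3 line out of the fit the counts were 26 for Tcl1, 5 for Jmjd2c, 2 for Mettl5 and 16 for the mean, and with Tbx3 left out of the mean alone it was 4. With only the 4 arrays of a line no member passed in the Tcl1 line (0) or the Tbx3 line (0). In the Jmjd2c line 1 member passed with normexp and loess, 1 with Cy3 alone and 1 with slide as a random block. Of the 49 members in the authors' value table, 3 passed in the Jmjd2c line and 6 for the mean. Among the 15008 tested probes in that table, 232 and 1558 passed. Slide as a random block gave 3 for Tbx3, and taking out a GC trend gave 1 for Mettl5. With the replicate number as a block, treated as a number only, the mean count was 1, and the others were 12 for Tcl1, 9 for Tbx3, 15 for the F test and 0 for the Jarid2, Jmjd2c and Mettl5 lines. Same-numbered wells deviated together at r of -0.05 to 0.33. Members chosen at 0.35 (29 probes) gave 7 for Tcl1, 5 for Tbx3, 0 for the mean and 8 for the F test, and members chosen at 0.20 (140 probes) gave 28, 16, 5 and 31, with 1 for Jmjd2c. The rule applied to normexp and loess values chose 47 probes, 34 of them shared with the 71, of which 1 passed for the mean. On that scale the median change of the 71 was 0.26 with Etv5, 0.30 with Ctbp2 and 0.087 with Mettl5. Leaving out 1 array gave 5 to 14 for Tcl1, 3 to 17 for Tbx3, 0 to 1 for Jmjd2c, 0 to 0 for Jarid2 and Mettl5, 0 to 7 for the mean, 12 to 28 for the F test and 82 to 100 chosen members. The Tcl1 count was 5 without its without-Dox replicate 1, and the Tbx3 count was 3 without its without-Dox replicate 1, 16 without its with-Dox replicate 1 and 17 without its without-Dox replicate 2. Spots are dim, at 1.77 to 2.80 times background, and 2 wells per group limit every call.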
